A study of Mus musculus with 3 samples.

Results

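The genes described here encode the enzymes that make, break down and read the second messengers cyclic AMP and cyclic GMP, together with the proteins that hold protein kinase A in place. They were taken by gene symbol alone, as the adenylyl cyclases (Adcy), the soluble guanylyl cyclases (Gucy1), the phosphodiesterases of families 1 to 5 and 7 to 10 (Pde), the subunits of protein kinase A (Prkac, Prkar), protein kinase G (Prkg) and the A-kinase anchor proteins (Akap). The rule matched 54 of the 32285 features of the deposited count tables, and 29 of the 54 had at least 20 UMIs (captured molecules) per 1000000 (CPM) in at least 1 library. Their RNA was measured in single horizontal cells of the mouse retina at postnatal days 6, 8 and 11 (P6, P8, P11), with 1 droplet library per age. All mice had the genotype Cx57icre;Ai14, in which Cre expressed from the connexin 57 gene, a gap junction gene of horizontal cells, switches on a red fluorescent reporter. Red cells were sorted after papain treatment of the retina, so every library carries the same alleles and the same sort, and how many animals were pooled is not given in the sources used here. A single library per age means that age and library cannot be told apart, that no test between ages was possible, and that all intervals below (95%) cover counting error only.

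Adenylyl cyclases make cyclic AMP when G protein coupled receptors activate them, and soluble guanylyl cyclase makes cyclic GMP when it binds nitric oxide. Phosphodiesterases hydrolyse either or both messengers, and protein kinases A and G are their main targets. In horizontal cells, dopamine acting through cyclic AMP and nitric oxide acting through cyclic GMP are known to uncouple the gap junctions that join these cells into a network.

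Horizontal cells were taken as barcodes with at least 1000 detected genes, at most 10% mitochondrial UMIs (unique molecular identifiers, 1 per captured molecule) and a UMI of at least 2 of the transcription factor genes Lhx1, Onecut1 and Onecut2. This gave 7145, 3153 and 4757 cells at P6, P8 and P11, or 94.4%, 96.1% and 96.2% of the barcodes that passed the first 2 filters. Their median depth was 12161, 20671 and 22106 UMIs, and their median mitochondrial share 3.13%, 3.32% and 4.56%. All 10 horizontal cell markers were detected in each library, and their summed level was 7080, 10309 and 16431 CPM. The 10 include Lhx1, Onecut1 and Onecut2, whose detection was set by the rule and is no separate sign of cell type. Mgarp, which is not in the rule, gave 159.7, 2641 and 5433 CPM of the sum. The 8 rod markers summed to 6.51 to 8.98 CPM. The 7 amacrine markers summed to 4705 to 9546 CPM, of which Npy alone gave 4465 to 9286. The libraries shared 4 to 8 cell barcodes per pair.

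In all, 28 members reached 20 CPM at P6 or P8. None was at least 2-fold higher at P8, against 1.73% of the 7067 genes tested, and 10 were at least 2-fold lower, against 8.55% of all genes (10.3% in either direction). The 10 were the cyclases Adcy1, Adcy2 and Adcy9, the phosphodiesterases Pde4d, Pde7a and Pde7b, the kinase Prkg1, the guanylyl cyclase subunit Gucy1a2 and the anchor proteins Akap6 and Akap10. With TMM factors, which set libraries on a trimmed mean of gene ratios, 4 of 27 members were 2-fold lower at P8 (Adcy1, Pde4d, Pde7b and Prkg1; 4.18% of all genes). Between P8 and P11, 3 of 28 members were at least 2-fold higher at P11 (Pde7b, Pde8b and Prkg1; 2.04% of 6770 genes) and none was lower (0.975%; 3.01% either way). Between P6 and P11, 1 of 29 was higher (Gucy1b1; 2.36% of 7161 genes) and 1 was lower (Adcy1; 4.71%; 7.07% either way). With TMM factors Pde8b joined Gucy1b1, which made 2 higher (3.89%). These comparisons share libraries and are not independent of each other. The median log2 ratio of the members tested was -0.53 for P8 over P6 (all genes -0.14), 0.47 for P11 over P8 (0.07) and -0.04 for P11 over P6 (-0.08). The share of higher genes among all genes 2-fold apart depended on the scaling: with TMM factors it was 53.4% in place of 16.8% for P8 over P6, 52.7% in place of 67.6% for P11 over P8, and 55.0% in place of 33.4% for P11 over P6.

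**Figure D1:**
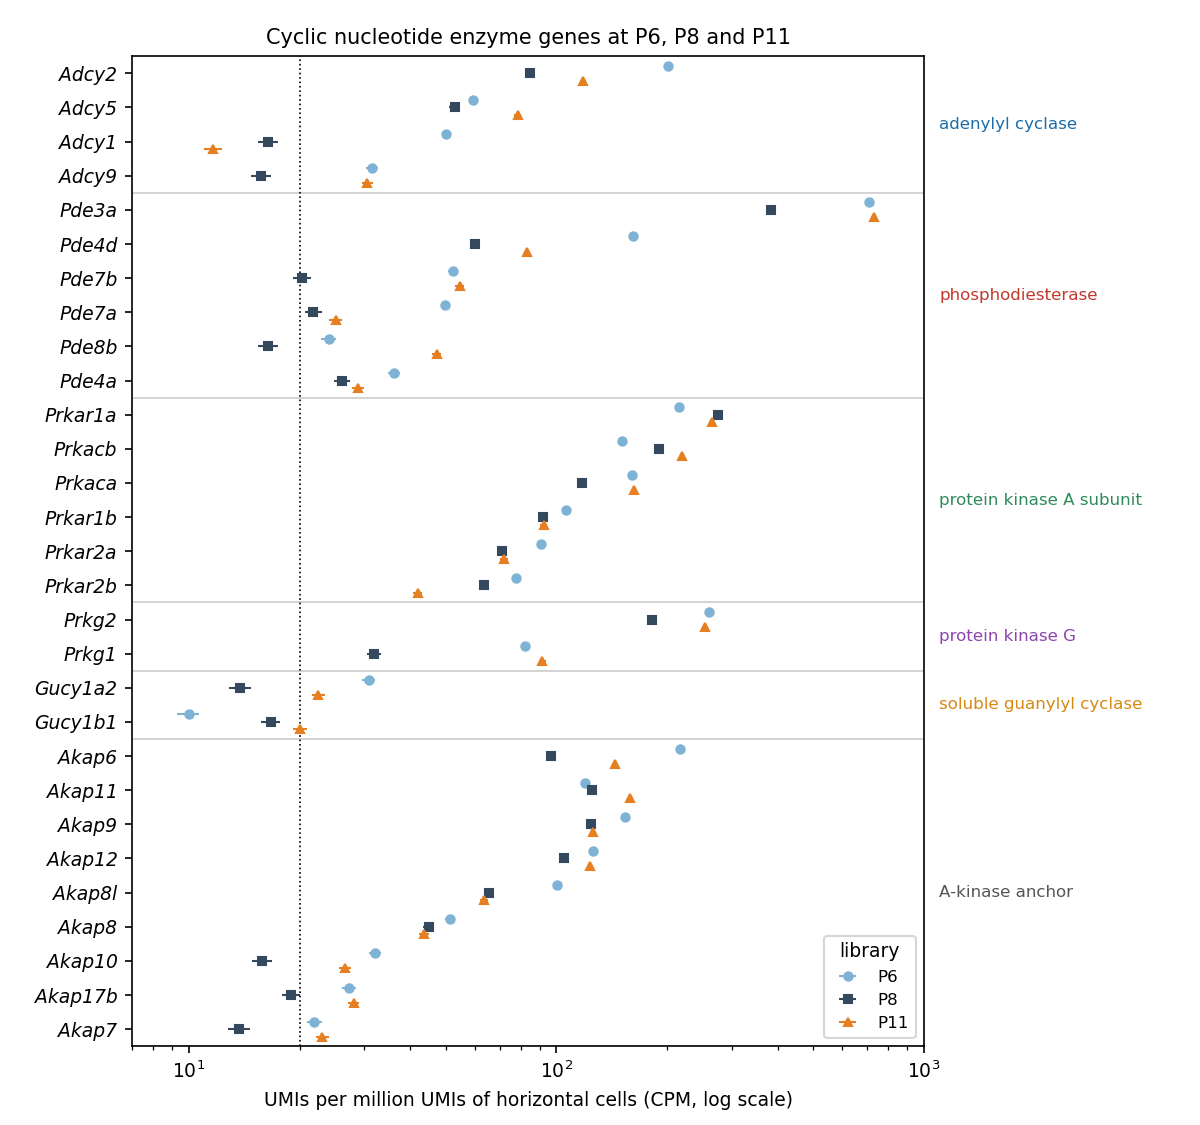
Level of each of the 29 member genes with at least 20 CPM in a library, in UMIs per 1000000 UMIs of horizontal cells (log axis), at P6 (circles), P8 (squares) and P11 (triangles), with 1 library per age. Bars are 95% Poisson intervals and the dotted line marks 20 CPM. Pde3a lies to the right of every other gene at 383 to 732 CPM, least so at P8, where Prkar1a has 275.8 CPM. The Adcy1 point at P11 lies 4.30-fold below that at P6.

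Adenylyl cyclase RNA came mainly from Adcy2, and its make-up differed between the libraries, with a smaller Adcy1 share and a larger Adcy5 share at P8 and P11 than at P6. The sum over the 10 genes was 360.4, 178.6 and 248.0 CPM at P6, P8 and P11. Adcy2, a cyclase stimulated by G protein beta-gamma subunits (ENSMUSG00000021536, chr13:68620043-68999541, minus strand, mm10), had 201.6, 84.5 and 118.0 CPM at P6, P8 and P11. It gave 56.0% of cyclase UMIs at P6 (interval 55.4 to 56.5%), 47.3% at P8 and 47.6% at P11. Adcy5, which Gi proteins and calcium inhibit (ENSMUSG00000022840), had 59.3, 52.9 and 78.4 CPM in the same order. Its share was 16.5% (16.0 to 16.9%), 29.6% (28.8 to 30.5%) and 31.6% (31.1 to 32.2%), so P8 and P11 lay close together and P6 apart. There were 0.294 Adcy5 UMIs per Adcy2 UMI at P6, 0.626 at P8 and 0.665 at P11.

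Adcy1, a cyclase that calcium and calmodulin stimulate (ENSMUSG00000020431, chr11:7063489-7178506, plus strand), had 50.2, 16.4 and 11.7 CPM at P6, P8 and P11. Its level was highest at P6 and lowest at P11, and P11 was 4.30-fold below P6 (4.04 to 4.59). Its share of cyclase UMIs was 13.9% at P6, 9.18% at P8 and 4.70% at P11. Adcy9 had 31.4, 15.7 and 30.6 CPM, so P6 and P11 differed by 1.03-fold and P8 was at 0.499 times P6 (0.463 to 0.537). Adcy3 and Adcy6 stayed under 20 CPM, at 12.03, 5.15 and 5.66 CPM for Adcy3 and 4.79, 3.52 and 3.09 CPM for Adcy6. Adcy7, Adcy8 and Adcy10 were at 0.680 CPM or less in every library, and Adcy4 had 0 UMIs in all 3. The use of intron reads is not given in the sources used here, so UMIs may not all lie near the 3′ end. These shares were not divided by gene length. Divided by exonic length, Adcy2 was still first in each library, with 69.4%, 60.5% and 59.4%. Divided by the span of the gene, Adcy5 was first at P8 (32.5%) and P11 (37.4%) and Adcy2 had 26.6%, 20.7% and 22.4%.

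The soluble guanylyl cyclases were scarce and their subunit balance differed between P6 and the later libraries. Gucy1b1, the beta subunit that every active enzyme needs, had 9.98, 16.7 and 20.1 CPM at P6, P8 and P11. The P11 value lies at the 20 CPM minimum and is the reason the gene was tested; its ratio to P6 was 2.01-fold (1.86 to 2.18). Gucy1a2, an alpha subunit that pairs with it, had 30.8, 13.8 and 22.5 CPM. The other alpha subunit gene, Gucy1a1, had 1.52, 1.55 and 2.06 CPM, and Gucy1b2 had 3, 0 and 1 UMIs. There were 3.09 (2.86 to 3.35), 0.825 (0.753 to 0.903) and 1.12 (1.06 to 1.19) Gucy1a2 UMIs per Gucy1b1 UMI at P6, P8 and P11. The genes span 362.0 kb (Gucy1a2) and 42.7 kb (Gucy1b1). Genes of like span had median log2 ratios of P8 over P6 of -0.73 and -0.29. The part of gene span in this balance was not tested.

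Pde3a was the leading phosphodiesterase gene at each age and in every alternative tried. Its share of the family was larger in the later libraries, except at P8 per kb of gene span. The sum over the 17 phosphodiesterase genes was 1096, 551.8 and 995.1 CPM at P6, P8 and P11. The P11 sum was below that of P6 by this scaling (log2 ratio -0.14) and above it with TMM factors (0.06). Pde3a, which hydrolyses both messengers and is inhibited by cyclic GMP (ENSMUSG00000041741, chr6:141249269-141507448, plus strand), had 710.6, 383.1 and 732.2 CPM at P6, P8 and P11. Among all features it ranked 175th, 448th and 169th. P6 and P11 differed by 1.03-fold (1.02 to 1.04), and P8 was 1.85-fold below P6. Its share of phosphodiesterase UMIs was 64.8% (64.5 to 65.1%), 69.4% (68.9 to 69.9%) and 73.6% (73.3 to 73.8%). Divided by the span of the gene, the share was 52.3%, 51.9% and 61.8%. Per adenylyl cyclase UMI there were 3.04, 3.09 and 4.01 phosphodiesterase UMIs.

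The genes that hydrolyse cyclic AMP alone (families 4, 7 and 8) gave 29.7%, 26.3% and 24.2% of the phosphodiesterase UMIs, and they differed among themselves. Pde4d (ENSMUSG00000021699), of the rolipram-sensitive family, had 161.0, 59.9 and 83.1 CPM at P6, P8 and P11, and its share was 14.7%, 10.9% and 8.35%. Pde4a had 36.1, 26.1 and 28.8 CPM. Pde7a had 49.9, 21.8 and 25.1 CPM, so that P11 was 1.99-fold below P6 (1.89 to 2.09). Its close relative Pde7b had 52.2, 20.3 and 54.5 CPM, with P6 and P11 within 1.04-fold of each other and P8 apart. Pde8b, a high-affinity cyclic AMP enzyme (ENSMUSG00000021684, chr13:95024454-95250336, minus strand), had 23.98, 16.4 and 47.2 CPM at P6, P8 and P11. Its P11 level was 1.97-fold that of P6 (1.87 to 2.08) and 2.88-fold that of P8 (2.69 to 3.08), and its share of phosphodiesterase UMIs was 2.19%, 2.98% and 4.75%.

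Genes for the other phosphodiesterases were low. The calcium and calmodulin dependent genes Pde1c and Pde1b had 18.9, 6.21 and 5.77 CPM and 17.2, 9.36 and 10.1 CPM. Pde10a had 11.5, 3.95 and 2.85 CPM and Pde3b 9.94, 3.10 and 3.14 CPM. The genes selective for cyclic GMP, Pde5a and Pde9a, together gave 0.132% of phosphodiesterase UMIs at P6, 0.0928% at P8 and 0.0351% at P11, while genes that act on both messengers gave 70.2%, 73.6% and 75.8%. Pde2a, Pde8a, Pde1a and Pde4c were under 1 CPM in each library, and Pde4b was at 0.272 to 1.42 CPM.

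**Figure D2:**
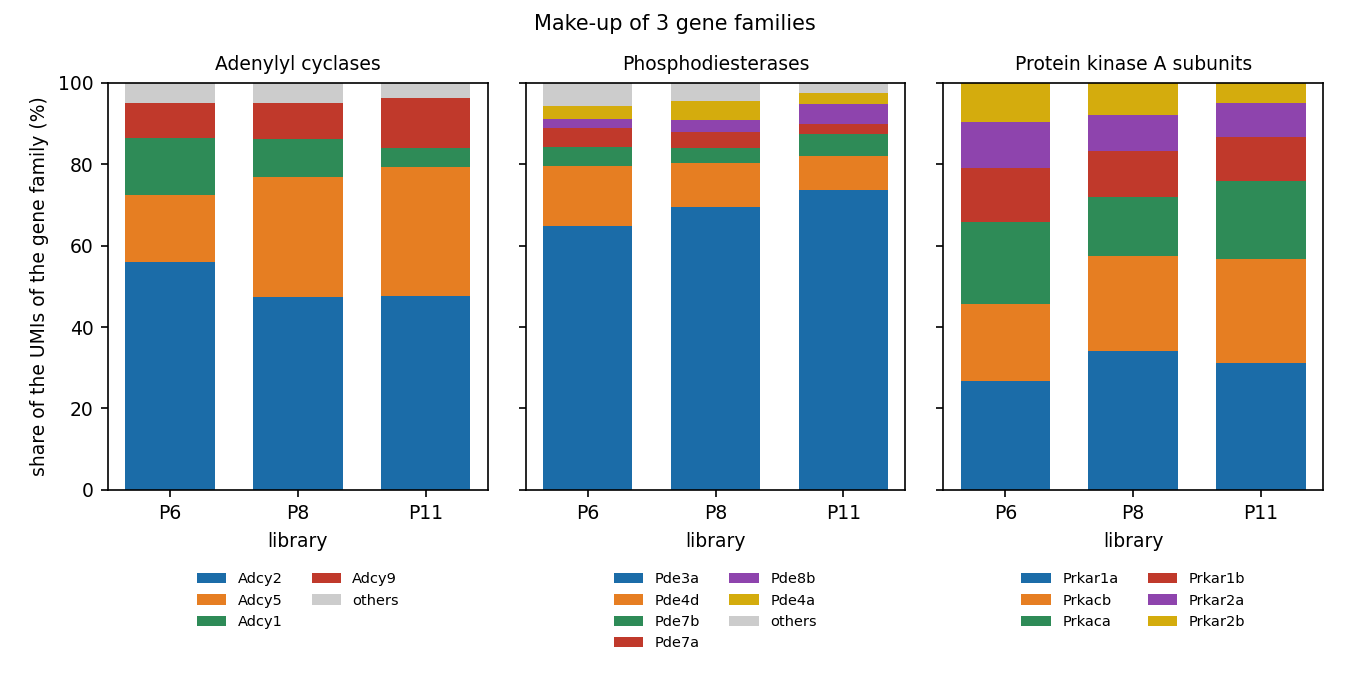
Share of the UMIs of each gene family (%) given by each gene at P6, P8 and P11, for adenylyl cyclases, phosphodiesterases and protein kinase A subunits, with genes under 20 CPM in every library summed as others. The Adcy1 share shrinks from 13.9% at P6 to 4.70% at P11, Pde3a takes 64.8% to 73.6% of the phosphodiesterase bars, and Prkar2b shrinks from 9.68% to 4.91%.

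The 6 protein kinase A genes all passed 20 CPM, and the balance of their subunits differed between the libraries. Their sum was 800.6, 809.1 and 853.1 CPM, with a log2 ratio of P8 over P6 of 0.02 by this scaling and 0.29 with TMM factors. Prkar1a, which encodes the type I alpha regulatory subunit (ENSMUSG00000020612, chr11:109649405-109669656, plus strand), had 215.1, 275.8 and 265.5 CPM at P6, P8 and P11. It was the largest contributor in each library with 26.9%, 34.1% and 31.1% of subunit UMIs, except per kb of exonic length, where the catalytic gene Prkaca led at P6 (33.2%) and P11 (32.8%). Prkacb, the catalytic beta subunit gene, had 150.5, 189.6 and 219.2 CPM, in ascending order of age, and P11 was 1.46-fold above P6 (1.43 to 1.49). Prkaca, the catalytic alpha subunit gene, had 160.8, 117.2 and 162.3 CPM. There were 0.936 Prkacb UMIs per Prkaca UMI at P6, 1.62 at P8 and 1.35 at P11. Prkar1b, encoding type I beta, had 106.1, 92.0 and 92.3 CPM. The type II regulatory genes were lower at P11 than at P6, with 90.7, 71.2 and 71.9 CPM for Prkar2a and 77.5, 63.4 and 41.9 CPM for Prkar2b. The P11 level of Prkar2b was 1.85-fold below that of P6 (1.78 to 1.92). Type I regulatory UMIs per type II UMI numbered 1.91 (1.87 to 1.95), 2.73 (2.66 to 2.80) and 3.14 (3.08 to 3.21). Regulatory UMIs per catalytic UMI numbered 1.57, 1.64 and 1.24. No kinase A gene was 2-fold apart between any pair of libraries. Of all genes tested, 10.3% (P8 over P6), 3.01% (P11 over P8) and 7.07% (P11 over P6) were 2-fold apart either way. A count of 0 among 6 genes is therefore little to go by. Measured from genes of like span, Prkar2b was 2-fold lower at P11 than at P8, as given below.

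Protein kinase A phosphorylates CREB, a factor that binds the palindrome TGACGTCA and, more weakly, its part TGACG. Both strings were searched on both strands of the RefSeq promoter windows (250 bases before to 50 after a start, build GRCm38.p6), so that every TGACGTCA also counts as TGACG. The table held 90 windows for 46 of the 54 members. TGACGTCA stood in 2 of the 90 (2.22%), both of Prkar1a, against 1.79% of all 32851 windows. TGACG stood in 19 (21.1%), from 17 of the 46 genes, against 20.8% of all windows. The window of Prkar1a with the palindrome (chr11:109650612-109650911, plus strand) is shown first, since it is the largest kinase A contributor. Below it stand windows of Pde8b (chr13:95223001-95223300, minus strand) and Adcy1 (chr11:7063183-7063482, plus strand), the one nearly 2-fold higher and the other 4.30-fold lower at P11 than at P6. Capitals mark the matches, read 5′ to 3′ on the strand of the gene. Prkar1a holds the palindrome and 1 separate TGACG, Pde8b holds 1 TGACG in 1 of its 5 windows, and the only Adcy1 window holds neither. A match is a description of these letters and not of binding.
Prkar1a: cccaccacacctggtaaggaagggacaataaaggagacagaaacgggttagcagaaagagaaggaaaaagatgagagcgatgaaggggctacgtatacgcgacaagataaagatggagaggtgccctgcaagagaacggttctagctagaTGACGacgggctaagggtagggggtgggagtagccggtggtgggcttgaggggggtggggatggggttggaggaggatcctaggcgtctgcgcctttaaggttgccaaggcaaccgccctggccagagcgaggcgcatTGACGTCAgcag
Pde8b: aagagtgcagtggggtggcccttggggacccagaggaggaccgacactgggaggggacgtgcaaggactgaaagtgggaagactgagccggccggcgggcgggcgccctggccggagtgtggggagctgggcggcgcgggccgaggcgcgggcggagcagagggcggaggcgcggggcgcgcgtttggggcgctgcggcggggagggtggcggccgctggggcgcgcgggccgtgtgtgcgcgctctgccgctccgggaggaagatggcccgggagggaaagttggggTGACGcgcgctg
Adcy1: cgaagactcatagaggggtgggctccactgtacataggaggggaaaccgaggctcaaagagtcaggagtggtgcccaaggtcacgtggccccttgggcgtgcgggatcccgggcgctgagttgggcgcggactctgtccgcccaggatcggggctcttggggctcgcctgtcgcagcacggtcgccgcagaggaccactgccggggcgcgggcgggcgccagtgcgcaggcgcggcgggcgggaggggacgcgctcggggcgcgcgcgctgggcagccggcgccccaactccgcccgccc

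Prkg2 exceeded Prkg1 in every library. Prkg2, the membrane-anchored form of protein kinase G (ENSMUSG00000029334), had 259.8, 181.9 and 253.3 CPM at P6, P8 and P11. Prkg1, the soluble form (ENSMUSG00000052920, chr19:30564489-31765033, minus strand), had 82.3, 31.9 and 91.6 CPM, with P8 2.58-fold below P6 (2.45 to 2.71) and P11 2.87-fold above P8 (2.73 to 3.01). There were 3.16 Prkg2 UMIs per Prkg1 UMI at P6, 5.70 at P8 and 2.77 at P11. Prkg1 was much higher in the few barcodes with Müller glia or bipolar markers, as given below.

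Of the 15 anchor protein genes, 9 reached 20 CPM, and the family summed to 883.1, 631.8 and 765.0 CPM. Akap6, a scaffold of the nuclear envelope in muscle and neurons (ENSMUSG00000061603), had 217.2, 96.5 and 144.3 CPM at P6, P8 and P11, and gave 24.6%, 15.3% and 18.9% of anchor UMIs. Akap11 had 119.6, 124.9 and 158.9 CPM and gave 19.8% at P8 and 20.8% at P11, the largest share at P11. Akap9, a scaffold of centrosome and Golgi, had 153.3, 123.8 and 125.4 CPM, and at P8 its share of 19.6% (19.2 to 19.99%) overlapped that of Akap11 (19.4 to 20.2%). Akap12, a scaffold at the cell membrane, had 126.0, 104.8 and 123.6 CPM. The nuclear anchor genes Akap8l and Akap8 had 100.2, 65.5 and 63.5 CPM and 51.4, 44.9 and 43.6 CPM. Akap10 had 32.1, 15.9 and 26.5 CPM, Akap17b had 27.3, 19.002 and 28.1 CPM, and Akap7 had 21.9, 13.7 and 23.1 CPM, with P8 lowest in each. Akap1 and Akap13 stayed between 7.84 and 17.7 CPM, Akap3, Akap5 and Akap14 were at 1.26 CPM or less, and Akap4 had 0 UMIs in all 3 libraries.

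By plain CPM, P8 was the lowest of the 3 libraries for 21 of the 29 members (72.4%), against 44.9% of 7218 genes in all. Neither count was repeated with TMM factors, with which both may be smaller. For the members tested, TMM factors brought the middle value for P8 against P6 from -0.53 to -0.24. For P11 against P8 they brought it from 0.47 to 0.39. The P8 level also went with gene length. In 5 groups of genes by span, the log2 ratio of P8 over P6 had a median of 0.27 in the shortest group and -0.73 in the longest (median span 164.3 kb), and 31.3% of the longest group were at least 2-fold lower. Of the 28 members tested, 17 lay in the longest group, where their median was -0.89. Among the 10 lower members, Pde4d spans 1504 kb, Prkg1 1201 kb, Akap6 456.2 kb, Adcy2 379.5 kb, Gucy1a2 362.0 kb and Pde7b 327.1 kb. The other 4 are shorter, with Adcy9 at 132.97 kb and Adcy1 at 115.02 kb in the longest group and Pde7a at 88.2 kb and Akap10 at 58.9 kb in the group before it. Measured from the median of their own span group, a step added once the data had been seen, none of the 28 was 2-fold lower at P8 (2.43% of all genes) or higher (1.77%). The largest distances below the group median were then those of Pde7a (-0.91), Adcy1 (-0.88) and Akap10 (-0.73). On the same footing P11 over P6 gave Gucy1b1 (1.12) and Pde8b (1.27) as 2-fold higher (2.78% of all genes) and Adcy1 (-1.81) as lower (3.92%). P11 over P8 gave Pde8b (1.09) and Prkg1 (1.09) as higher (1.12%), with Pde7b at 0.99, and Prkar2b (-1.03) as lower (0.945%). The part of gene span in the P8 values was not tested.

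**Figure D3:**
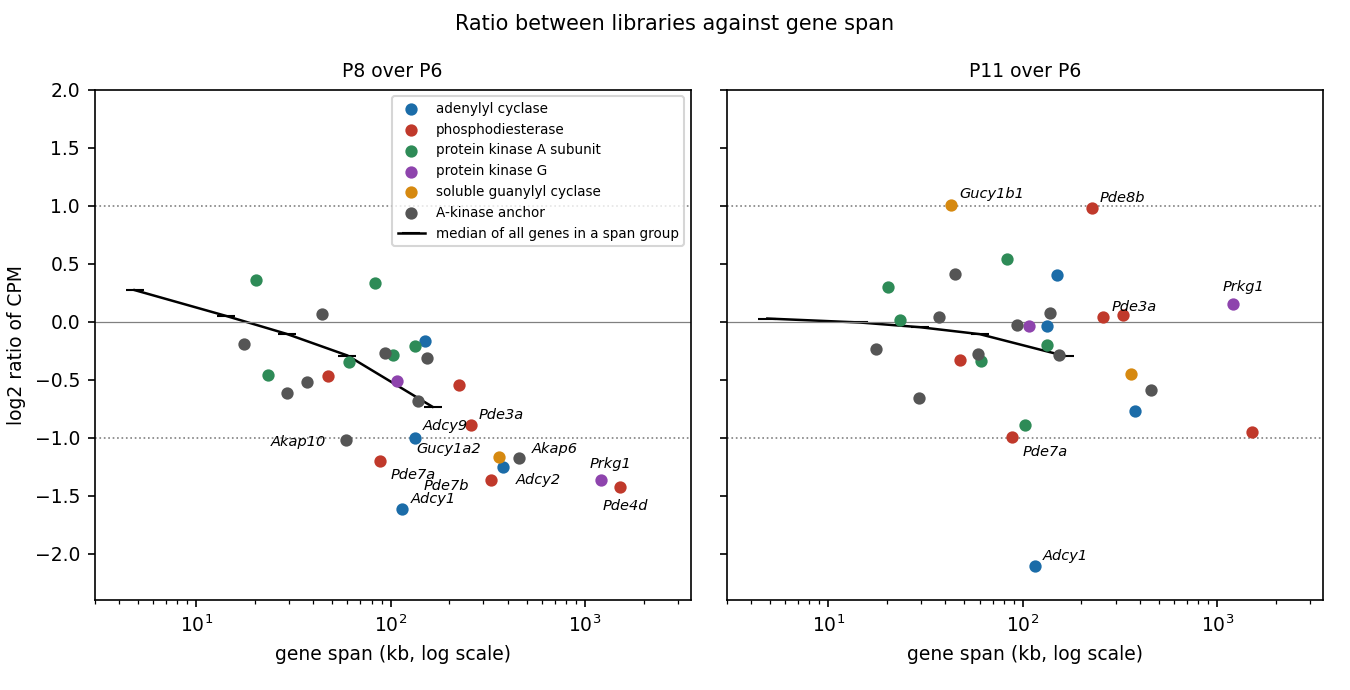
Log2 ratio of CPM against gene span (kb, log axis) for the members tested, P8 over P6 on the left and P11 over P6 on the right; colours mark gene families, the black line joins the median ratios of all genes in 5 span groups and dotted lines mark 2-fold. On the left, where the line runs from 0.27 to -0.73, 17 of the 28 members lie below the median of their span group, and Adcy1 stands alone at the bottom on the right at -2.11.

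Within a library, Pde3a was found in most horizontal cells and varied more from cell to cell than the median gene of like level. Thinning to 3000 UMIs used the 6768, 3056 and 4667 cells at P6, P8 and P11 that were deep enough. Of these, 82.1%, 62.8% and 83.9% had a Pde3a UMI, and without thinning 96.7%, 97.9% and 99.7% of all horizontal cells. Outside the horizontal cell rule the median depth was 2322, 2924 and 2994.5 UMIs over 427, 129 and 186 barcodes. In the 113, 64 and 93 of them deep enough to be thinned alike, the share was 36.3%, 15.6% and 24.7%. Over the summed UMIs of all barcodes outside the rule, Pde3a had 584.3, 330.8 and 407.5 CPM. The level in horizontal cells was 710.6, 383.1 and 732.2 CPM, so the summed levels lay closer together than the shares of cells, most of all at P6 and P8. Thinning to 10000 UMIs, a depth added once the data had been seen, used 4492, 2857 and 4443 horizontal cells. It left out 2653, 296 and 314 shallower ones, so that P6 lost a larger part of its cells than P8 or P11. In the cells used, the median was 6, 3 and 7 Pde3a UMIs. The central 80% of cells ran from 3 to 12, 1 to 7 and 3 to 12. The variance divided by the mean over cells was 2.13, 1.89 and 2.18, where genes of like mean had medians of 1.34, 1.14 and 1.33. Of those genes, 14.1%, 3.83% and 8.47% had a higher value than Pde3a.

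Prkg1 also stood above genes of like mean, with 1.86, 1.39 and 1.72 against 1.04, 1.03 and 1.04. Without cells that held 2 scarce markers of another class its values were 1.73, 1.37 and 1.63. Pde7b had 1.59, 1.26 and 1.48 against 1.03, 1.02 and 1.03. Pde4d had 1.46, 1.496 and 1.41, and 1.44, 1.22 and 1.35 without the same cells. Akap12 had 1.31, 1.37 and 1.35 against 1.05 in each library. Prkar1a, at 1.03, 1.16 and 1.04, stayed close to the 1.08, 1.11 and 1.11 of genes of like mean. Of the 4492, 2857 and 4443 cells deep enough for 10000 UMIs, 4.36%, 19.8% and 10.6% had no cyclase UMI. UMIs of 3 different cyclase genes were found in 24.4%, 8.68% and 14.9%.

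**Figure D4:**
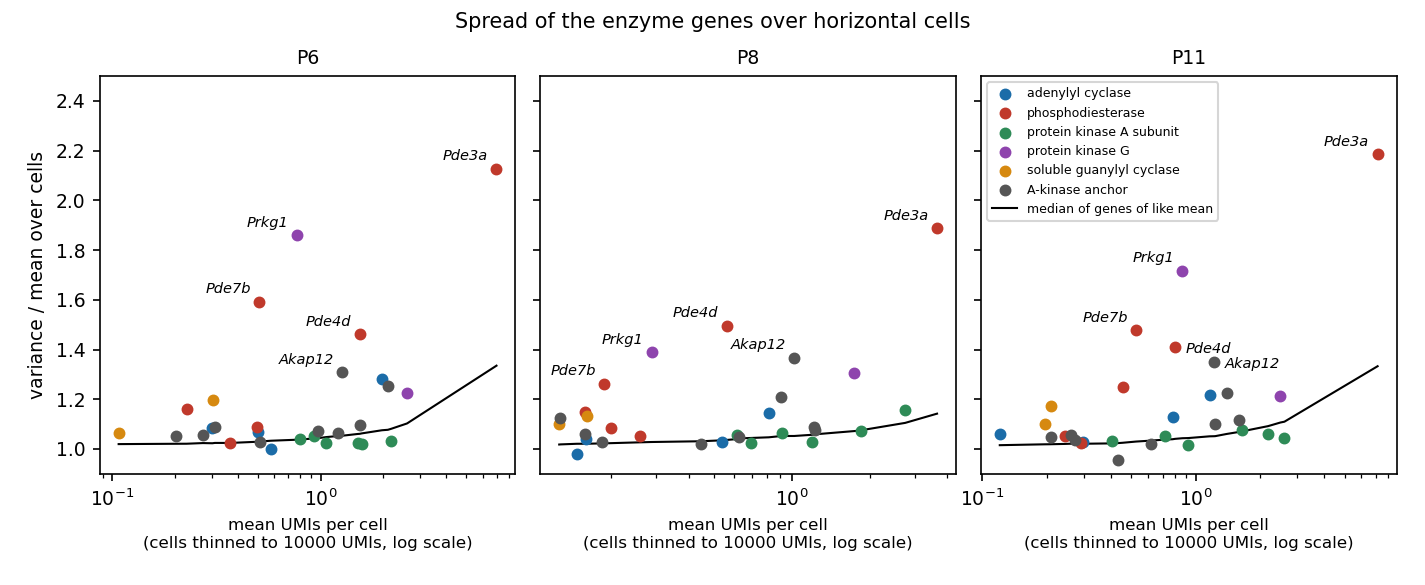
Variance divided by mean over horizontal cells thinned to 10000 UMIs, against mean UMIs per cell (log axis), for the 29 members at P6, P8 and P11; the black line is the median of all genes of like mean. Pde3a is at the top right of each panel (2.13, 1.89 and 2.18), Prkg1, Pde7b, Pde4d and Akap12 lie above the line, and the kinase A subunits lie along it.

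Some members were higher in other barcodes of the same sorts. A barcode outside the horizontal cell rule was placed in a class by at least 3 of its markers, with fewer of every other class but horizontal cells. Barcodes outside the horizontal cell rule that held rod markers numbered 44, 42 and 41, and their Pde8b level was 321.2, 240.1 and 556.5 CPM. Rod markers within the horizontal cells summed to 8.98, 7.97 and 6.51 CPM, with all 8 detected, at P6, P8 and P11. Adcy1 had 98.2, 97.8 and 136.7 CPM in the rod-marker barcodes, from 11, 11 and 14 UMIs. Pde3a had 35.7, 8.89 and 29.3 CPM there, from 4, 1 and 3 UMIs, far under its level in horizontal cells. Barcodes with bipolar markers had 311.3, 13.2 and 18.6 CPM of Pde3a, and those with amacrine markers 161.8, 123.0 and 356.9 CPM. Prkg1 had 3389, 528.7 and 2983 CPM in the 38, 3 and 12 barcodes with Müller glia markers, and 2655, 661.6 and 1810 CPM in the 30, 18 and 33 with bipolar markers. In horizontal cells the 7 Müller markers summed to 132.8, 142.3 and 206.0 CPM, of which Glul gave 121.9, 136.7 and 195.9, and Slc1a3 and Kcnj10 were at 0 at P8. The 7 bipolar markers summed to 136.9, 47.2 and 69.9 CPM, of which Grik1 gave 118.2, 42.9 and 66.1, and all 7 were detected in each library. Like Prkg1, this sum was lowest at P8. Without the cells that held 2 scarce markers of another class, also removed only once the data had been seen, the Prkg1 log2 ratio of P11 over P8 was 1.53, against 1.52 with them. Gucy1b1 had 119.0, 238.2 and 241.7 CPM in the bipolar-marker barcodes, and its P11 over P6 log2 ratio was 0.98 without the same cells, against 1.01 with them. Pde4d reached 3527, 1089 and 1152 CPM in the 41, 16 and 23 barcodes with amacrine markers. Of these markers, Npy had 6758, 9286 and 4465 CPM and Slc32a1 272.1, 258.9 and 238.2 CPM in the horizontal cells themselves. These markers therefore do not set a barcode apart from horizontal cells. Removing the scarce-marker cells left 6991, 3112 and 4661 horizontal cells. It takes out whole cells only and does not act on RNA of other cell types in the cells kept. The part of RNA from other cell types in the levels of horizontal cells was not tested.

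Other genes of the pathway were read from lists, chosen with earlier results of these data known, as P11 against P6 among genes of at least 20 CPM. Of 13 G protein subunit genes 2 were at least 2-fold lower and none was higher. Gnb4, a beta subunit, had 29.1, 10.8 and 2.24 CPM at P6, P8 and P11, and Gnal, a stimulatory alpha subunit, had 39.9, 22.4 and 15.3 CPM. Gnas, the main stimulatory alpha subunit, had 3881, 5969 and 6388 CPM. Of 9 receptors coupled to stimulatory or inhibitory G proteins, 1 was higher and 4 were lower. The dopamine receptor gene Drd4, which lowers cyclic AMP, had 23.7, 47.4 and 58.1 CPM, and the stimulatory receptor gene Drd1 had 53.5, 49.1 and 91.1 CPM without reaching 2-fold. The 3 lower receptor genes farthest apart were the serotonin receptor Htr1b, with 51.0, 31.5 and 9.70 CPM, and the glutamate receptors Grm8, with 244.5, 65.5 and 62.6 CPM, and Grm7, with 138.6, 33.9 and 49.5 CPM.

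Of 15 genes for kinase inhibitors and phosphatase partners 1 was higher, Ppp1r1b, whose product inhibits protein phosphatase when protein kinase A phosphorylates it. It had 21.2, 34.8 and 56.0 CPM at P6, P8 and P11, which put P11 2.64-fold above P6 (2.502 to 2.79). Of 3 cyclic AMP and activity target genes 1 was lower, Vgf, a neuropeptide precursor gene, with 41.8, 13.04 and 3.44 CPM. None of 8 genes for CREB factors and coactivators, 4 for other cyclic nucleotide sensors, 3 for nitric oxide and guanylyl cyclase receptor signalling or 2 phosphodiesterase genes outside the rule was 2-fold apart. Of 4 long or nuclear RNA genes 1 was lower, the noncoding Meg3, with 3037, 1013 and 1004 CPM. The sensor genes included Rapgef4, a cyclic AMP activated exchange factor, at 67.7, 34.3 and 43.5 CPM. The median log2 ratios of the lists ran from -0.45 for the sensors and the long genes to 0.42 for the nitric oxide list, beside -0.08 for all genes. The background for these counts is again 2.36% of all genes tested for higher and 4.71% for lower. In the longest of the 5 span groups it was 1.74% for higher and 11.0% for lower, and the list counts took no account of span.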

How the data were processed

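The 3 libraries hold RNA of single sorted horizontal cells of the mouse at P6, P8 and P11. Raw UMI counts of every gene in every barcode were deposited by the authors, and the submitters' processing notes name Cell Ranger 7.1.0 and the build mm10. Neither the annotation release nor the use of intron reads is given in the sources used here. Counts of the horizontal cells were summed per library (82305608, 62520239 and 103160766 UMIs) and divided by their total to give CPM. Sums carry exact Poisson intervals, ratios conditional binomial and shares Clopper-Pearson intervals, all at 95%, covering counting error only. Genes were compared where the higher age reached 20 CPM, and counted at 2-fold, with a floor of 3 counts for a 0. Members with 20 CPM in a library are named, as are at most the 3 genes farthest apart each way of each list. Members and lists were chosen with earlier results of these data known. Spans came from GENCODE vM21 (mm10), matched by gene ID. Scrublet in scanpy 1.11.5 marked 0%, 0.244% and 0% of cells, under 0.5%, so doublets were kept and a limit from 0.8% per 1000 cells served as an alternative only. The ratio and interval code was run on simulated counts for P11 over P6. These held counting error only, with no variation between libraries or cells, and 200 genes well above 20 CPM were made 3-fold different. At the 2-fold limit 100 of 100 were found each way, with 0 of 6718 others. Such counts check the code and give no rate of false calls between single libraries. Alternatives were other scalings (TMM from edgeR 4.0.16), filters, cell rules and thinning, and scipy 1.17.1 gave the intervals. Barcodes outside the horizontal cell rule were used only for comparison.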

Additional observations from a re-analysis of the deposited data

How the results depend on the processing

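No paired analysis was possible because each age has 1 library, and for the same reason no library could be left out. TMM and median-of-ratios factors moved the median log2 ratio of all genes by 0.30 and 0.34 (P8 over P6), -0.08 and -0.13 (P11 over P8) and 0.21 and 0.21 (P11 over P6), and the median-of-ratios split was 60.6%, 47.8% and 54.9% higher. No log2 ratio of a member that was 2-fold apart changed sign. Of 957 log2 ratios under alternatives 640 stayed within their counting interval, as did 307 of 480 shares; the causes of the others were not tested. The 10 members lower at P8 than P6 were 4 under either scaling, 24 with no minimum level, 3 at 100 CPM, 2 without cells holding 2 markers of another class and 0 relative to genes of like span. That removal left 597, 106 and 131 cells and also gave 1 member higher at P8, and at P11 over P6 0 higher and 2 lower. The 3 members higher at P11 than P8 were 6 with no minimum, 0 at 100 CPM, 8 at 1.5-fold and 5 at a 5% mitochondrial limit; the 0 lower were 1 at 1.5-fold and 1 relative to like span. The 1 member higher at P11 than P6 (Gucy1b1) was 2 under either scaling, relative to like span, at 1.5-fold and at 5% mitochondrial UMIs, and 0 at 100 CPM, with all 3 rule genes, without scarce-marker cells and as a mean over cells. The 1 lower (Adcy1) was 15 with no minimum, 0 at 100 CPM, 7 at 1.5-fold, and 2 as a mean over cells, with totals without mitochondrial and ribosomal protein genes and Malat1, without cells of high doublet score and in cells thinned to 3000 UMIs.

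The Adcy2 share at P6, P8 and P11 was 57.5%, 55.7% and 53.0% without cells holding markers of another class; 69.4%, 60.5% and 59.4% per exonic kb; and 26.6%, 20.7% and 22.4% per kb of span. It was 56.6% (P6) and 48.4% (P8) as a mean over cells, 45.8% (P8) and 49.6% (P11) in thinned cells and 48.3% (P11) at 5% mitochondrial UMIs. The Pde3a share was 64.4% (P6) and 71.1% (P11) without cells holding markers of another class, 64.0% and 73.2% as a mean over cells, and 64.4% (P6) in thinned cells. Per exonic kb it was 58.4%, 61.8% and 66.2%, and per kb of span 52.3%, 51.9% and 61.8%. The Prkar1a share was 25.5%, 28.97% and 27.2% without cells holding markers of another class and 47.6%, 58.3% and 52.6% per kb of span. It was 26.4% (P6) both as a mean over cells and in thinned cells, 25.6% (P6) per exonic kb and 31.7% (P11) at 5% mitochondrial UMIs. Per-length shares, the span comparison and the removal of scarce-marker cells were chosen after seeing the data. Depth limits the 25 members under 20 CPM, where intervals are widest.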
